A study of Homo sapiens with 18 samples.

Results

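The 10 genes described here mark epithelial identity and the cadherin switch: 5 classical cadherins (CDH1, CDH2, CDH3, CDH6 and CDH11), the surface glycoprotein EPCAM, the claudin CLDN6, the splicing regulators ESRP1 and ESRP2, and the intermediate filament VIM. They were taken by gene symbol from the 37550 rows of the deposited table. Each symbol gave 1 row, and all 10 were among the 17033 genes with at least 1 TPM, a length-scaled abundance, in at least 2 libraries. TPM divides by transcript length, and levels of different genes can be set side by side.

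The study asked how anterior and posterior neural ectoderm made from human pluripotent stem cells differ, and how each responds to media for forebrain, midbrain and hindbrain. All 18 libraries came from the wild-type H1 line, an established human embryonic stem cell line, with 2 biological replicates in each of 9 groups. Undifferentiated cells at day 0 formed the group hPSC. Every other group spent day 1 in a definitive ectoderm medium with the TGF-beta receptor inhibitor A8301 (1 µM), the MEK inhibitor trametinib (250 nM), the porcupine inhibitor C59 (1 µM) and the BMP receptor inhibitor LDN193189 (100 nM). Cells of both origins were then split, replated with the ROCK inhibitor thiazovivin and kept in A8301 and LDN193189 for day 2. Anterior neural ectoderm (aNE) also received C59 (1 µM). Posterior neural ectoderm (pNE) instead received the retinoic acid receptor agonist TTNPB (50 nM), FGF2 (20 ng/mL) and the tankyrase inhibitor XAV939 (1 µM). Cells of each origin then went to day 4 in forebrain medium (aNE_T, pNE_T), midbrain medium (aNE_M, pNE_M) or hindbrain medium (aNE_H, pNE_H). On day 3 the forebrain medium held XAV939, LDN193189 and FGF2, and the make-up of the other media was not used here. Plating was at 37500 cells per cm2 for both day-2 groups, but at 75000 (aNE) and 150000 (pNE) cells per cm2 for day-4 groups. Origin and plating density at day 4 cannot be told apart, nor can time, medium and density between day 2 and day 4.

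Classical cadherins are calcium-dependent adhesion proteins that bind cadherins on the next cell and, through catenins, the actin cytoskeleton. When the neural plate forms, the ectoderm replaces E-cadherin (CDH1) with N-cadherin (CDH2), a change known as the cadherin switch. A related change of cadherins accompanies epithelial-mesenchymal transition (EMT), in which repressors of the ZEB, SNAI and TWIST families lower CDH1 and cells such as the neural crest leave their epithelium. The neural plate itself stays an epithelium while it switches.

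The number of reads behind each value is unknown, because TPM keeps no depth, and so no counting intervals are given. Each of the 18 libraries was closest to its own replicate, and no 2 libraries of a group held identical values. Between 13686 and 14679 genes had at least 1 TPM in a library. Mitochondrial genes took 0.960% to 1.23% of TPM in hPSC and 1.53% to 3.74% elsewhere. The group labels were set against marker genes. POU5F1, a core pluripotency factor, averaged 2889 TPM in hPSC, 163 in aNE, 170 in pNE and 2.77 to 5.46 at day 4. In these bulk samples, fewer cells of a type and less RNA per cell cannot be told apart.

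Sequences are shown for the genes whose regulation and binding surface the values concern. The human promoter table from RefSeq (build GRCh38.p14) held 3 of the 10 genes: CDH2 and VIM, which both rose by day 2, and CLDN6, which fell by day 4. The 250 bases before each RefSeq start are printed in lower case. The windows of CDH2 and CLDN6 lie inside the spans of these genes in the GENCODE annotation, given below. The window of VIM lies before its span. Capitals mark GGGCGG, the core of the GC box bound by SP1-family factors, on either strand.
CDH2 promoter, chr18:28177131-28177380, minus strand: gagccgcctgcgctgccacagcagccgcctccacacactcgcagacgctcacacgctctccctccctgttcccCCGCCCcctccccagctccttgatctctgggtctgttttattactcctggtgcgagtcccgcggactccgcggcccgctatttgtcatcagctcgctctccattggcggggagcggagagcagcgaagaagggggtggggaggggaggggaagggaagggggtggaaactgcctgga
CLDN6 promoter, chr16:3018184-3018433, minus strand: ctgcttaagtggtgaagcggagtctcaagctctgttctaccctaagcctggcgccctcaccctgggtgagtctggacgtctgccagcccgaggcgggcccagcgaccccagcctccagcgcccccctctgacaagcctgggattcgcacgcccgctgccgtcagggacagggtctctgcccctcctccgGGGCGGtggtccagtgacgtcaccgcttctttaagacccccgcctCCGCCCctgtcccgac
VIM promoter, chr10:17227991-17228240, plus strand: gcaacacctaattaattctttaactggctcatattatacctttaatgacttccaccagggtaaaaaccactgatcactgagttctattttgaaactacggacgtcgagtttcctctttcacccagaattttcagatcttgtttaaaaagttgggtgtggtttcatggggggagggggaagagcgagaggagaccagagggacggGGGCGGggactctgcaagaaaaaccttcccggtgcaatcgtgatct
GGGCGG or its reverse complement CCGCCC occurred 1 time in the windows of CDH2 and VIM and 2 times in that of CLDN6. Of 35116 promoter windows of the same length, 42.6% held it. CACCTG, the E-box letters that ZEB and SNAI factors recognise, and its reverse complement CAGGTG occurred 0 times in these 3 windows, against 17.5% of all windows. A second RefSeq start of CDH2, with its window at chr18:28036642-28036891, held neither motif.

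The protein surface that pairs type I cadherins carries a short histidine-alanine-valine motif in the first cadherin repeat. The codons around it in CDH2, from the GENCODE 29 transcript set (GRCh38, minus strand), are printed with the motif's 9 bases in capitals.
CDH2 codons around the motif: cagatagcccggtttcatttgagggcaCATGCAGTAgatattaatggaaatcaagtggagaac
The window is spliced from exons 5 and 6, which lie within chr18:28005949-28009734. Codons for this motif began at codon 233 in CDH1, 238 in CDH2 and 186 in CDH3 when the open reading frames were searched. None occurred in CDH11. In CDH6 they occurred only at codon 510, far from the first repeat. CDH6 and CDH11 are type II cadherins, which bind through a different pocket of that repeat.

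In the GENCODE 29 annotation, 5 of the 10 genes lie on chromosome 16. CDH3 (68636189 to 68722616) and CDH1 (68737225 to 68835548) are neighbours on the plus strand, 14.6 kb apart with 0 protein-coding genes between them. ESRP2 (68229111 to 68238102, minus strand) ends 398.1 kb before CDH3. CDH11 (64943753 to 65126112) and CLDN6 (3014712 to 3020071) are on the minus strand. Elsewhere, CDH2 spans 27950966 to 28177446 of chromosome 18 (minus strand) and VIM 17228259 to 17237593 of chromosome 10 (plus strand). EPCAM spans 47345158 to 47387601 of chromosome 2 and CDH6 31193750 to 31329146 of chromosome 5, both on the plus strand. ESRP2 shares exonic bases with NFATC3 on the opposite strand (16.2 to 27.9 TPM over the libraries), and CLDN6 with TNFRSF12A (15.4 to 195 TPM). VIM overlaps the antisense gene VIM-AS1. Antisense genes also overlap exons of CDH1, CDH2, CDH3 and CDH6, and genes on the same strand overlap exons of CDH6, CDH11 and ESRP2. EPCAM and ESRP1 have no such overlap. Whether the quantification used strand is not given in the sources used here, so reads from these overlaps cannot be told apart.

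**Figure D1:**
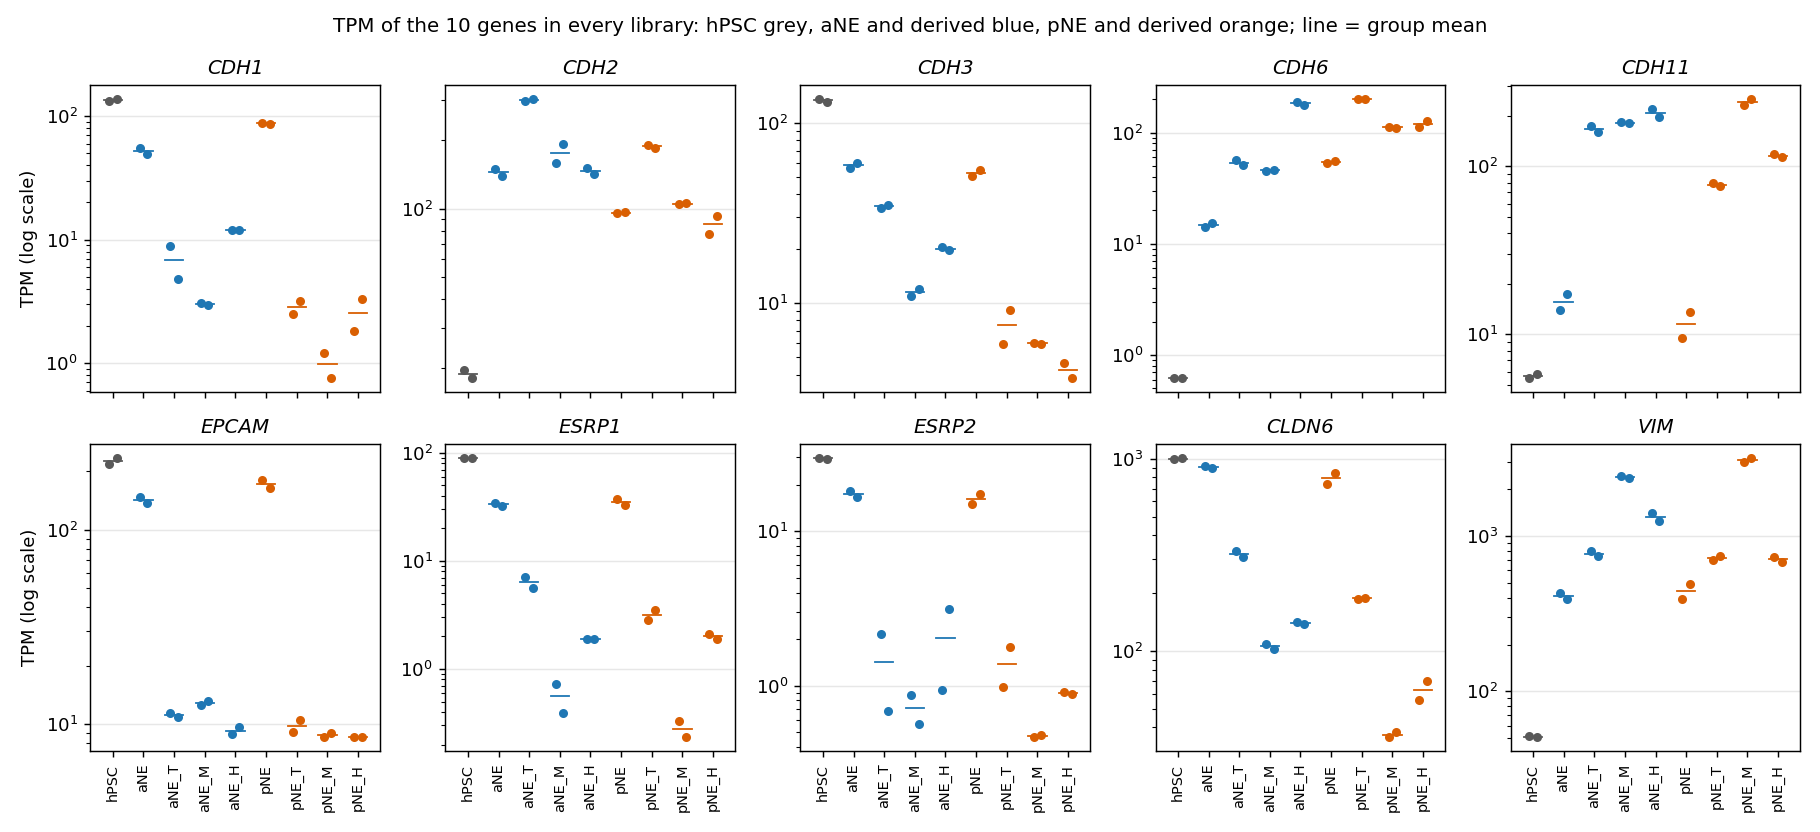
TPM (log axis, its range set per panel) of the 10 genes in all 18 libraries, by group. Points are the 2 libraries of a group and lines their mean. CDH1, CDH3, EPCAM, ESRP1, ESRP2 and CLDN6 were highest in hPSC, and CDH2, CDH6, CDH11 and VIM were lowest there.

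By day 4 the whole set had divided into 6 genes that fell and 4 that rose, whatever the origin or medium. CDH1, CDH3, EPCAM, ESRP1, ESRP2 and CLDN6 were lower than in hPSC, and CDH2, CDH6, CDH11 and VIM were higher, in all 6 day-4 groups. A change was called with limma where the Benjamini-Hochberg adjusted p over all 17033 genes was under 0.05 and the difference on the log2(TPM + 1) scale was 1 or more in size. Against hPSC, 10 of 10 genes were called in aNE_T (21.0% of all genes tested), aNE_M (17.2%), aNE_H (17.7%), pNE_T (21.4%), pNE_M (18.2%) and pNE_H (20.3%). These comparisons share the hPSC libraries. The median log2 fold change of the 10 genes ran from -1.78 in aNE_T to -4.32 in pNE_M, while that of all genes ran from 0.00 to 0.08. With 6 of the 10 genes lower, this median lies among the genes that fell and does not reflect the 4 that rose.

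At day 2 the set was only part of the way. In aNE, 7 of 10 genes were called against hPSC (13.5% of all genes), with CDH2, CDH6, CDH11 and VIM higher and CDH1, CDH3 and ESRP1 lower. In pNE, 5 of 10 were called (12.9% of all genes), with CDH2, CDH6 and VIM higher and CDH3 and ESRP1 lower. EPCAM, CLDN6 and ESRP2 were called in neither. The median over the 10 genes was -0.40 in aNE and -0.37 in pNE, and that of all genes 0.06 and 0.05. The set's median again lies among the genes that were lower, called or not.

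From day 2 to day 4, called genes numbered 8 of 10 in aNE_T (9.03% of all genes), 9 in aNE_M (12%) and 9 in aNE_H (10.1%), each against aNE. They numbered 8 in pNE_T (10.2%), 9 in pNE_M (12.7%) and 8 in pNE_H (12.3%), each against pNE. CDH1, EPCAM, ESRP1, ESRP2 and CLDN6 fell and CDH6 and CDH11 rose in all 6. CDH2 had the fewest calls in this interval, 1 of 6, in aNE_T.

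CDH1 encodes E-cadherin, the adhesion molecule of pluripotent cells and most epithelia. Its level was 133 and 138 TPM in the 2 hPSC libraries, 55.6 and 49.8 in aNE, and 88.6 and 86.3 in pNE. At day 4 the aNE-derived libraries held 8.92 and 4.80 TPM in forebrain, 3.04 and 2.97 in midbrain and 12.1 and 11.97 in hindbrain medium. The pNE-derived libraries held 2.49 and 3.16, 1.20 and 0.759, and 1.83 and 3.28 TPM in the same media. No day-4 library reached the lowest day-2 library. CDH1 fell by 1.35 on the log2 scale in aNE against hPSC (SE 0.23, adjusted p = 4.27e-04). In pNE the log2 difference was -0.63 (adjusted p = 0.0459), under the size required for a call. Against their own day-2 cells, the log2 change of CDH1 was -2.82, -3.74 and -2.04 in aNE_T, aNE_M and aNE_H. It was -4.54, -5.49 and -4.67 in pNE_T, pNE_M and pNE_H, and all 6 changes were called. The libraries of pNE and aNE did not overlap, but their difference (log2 0.72, SE 0.23, adjusted p = 0.0558) was not called. In the order of mean levels, aNE_M did not differ from pNE_T, nor pNE_T from pNE_H, at an adjusted p under 0.05.

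CDH3 encodes P-cadherin, the close relative of E-cadherin encoded next to it. It was as abundant as CDH1 in hPSC, at 136 and 130 TPM. Day-2 levels were 56.4 and 59.5 TPM in aNE and 50.5 and 54.7 in pNE, called in both (log2 -1.18, SE 0.14, and -1.32, SE 0.14). In aNE_T it was 33.6 and 35.1 TPM, a log2 difference of -0.74 from aNE that was not called. It fell further in aNE_H, to 20.4 and 19.7 TPM, and in aNE_M, to 10.9 and 11.99. In pNE-derived cells the levels were 5.93 and 9.16 TPM in forebrain, 6.01 and 5.90 in midbrain and 4.62 and 3.83 in hindbrain medium. All 6 pNE-derived libraries were below all 6 aNE-derived ones.

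CDH2 encodes N-cadherin, the adhesion molecule of the neural plate and neural tube. From 19.6 and 18.03 TPM in hPSC it stood at 150 and 139 in aNE and 95.3 and 96.6 in pNE after 2 days. These rises were 2.88 (SE 0.10, adjusted p = 1.98e-10) and 2.29 (SE 0.10, adjusted p = 1.44e-09) on the log2 scale. In aNE_T CDH2 rose again, to 297 and 304 TPM (log2 1.05 over aNE). In pNE_T it was 191 and 186 TPM, a log2 difference of 0.97 over pNE that was not called, though it was under median-ratio scaling (log2 1.003). Midbrain and hindbrain media left both origins near their day-2 level: 159 and 192 TPM in aNE_M, 152 and 141 in aNE_H, 104 and 106 in pNE_M and 77.3 and 93.3 in pNE_H. Forebrain medium thus held the highest CDH2 of each origin, with no overlap with the other media. Hindbrain medium was lower than forebrain medium in aNE-derived cells (log2 -1.03) and in pNE-derived cells (log2 -1.14). The first of these calls was lost without aNE_H replicate 2 (log2 -0.98) and under median-ratio scaling (log2 -0.97).

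The ratio of CDH2 to CDH1 TPM puts the switch into 1 number per library. It was 0.147 and 0.131 in hPSC, 2.69 and 2.80 in aNE, and 1.08 and 1.12 in pNE, so at day 2 the pNE libraries held nearly equal amounts of both. At day 4 the lowest ratios were those of aNE_H, at 12.6 and 11.8. Ratios were 33.4 and 63.4 in aNE_T, 52.2 and 64.5 in aNE_M, and 76.7 and 58.7 in pNE_T. They were 87.1 and 140 in pNE_M and 42.2 and 28.5 in pNE_H. Over the 12 day-4 libraries, log2((CDH2 + 1)/(CDH1 + 1)) averaged 5.34 ± 0.58 (SD, n = 6) in pNE-derived and 4.76 ± 1.01 (SD, n = 6) in aNE-derived libraries. The difference of 0.58 had p = 0.0370 in an exact two-sided permutation test within media (smallest possible p 0.00926). By medium it was 0.32 in forebrain, 0.31 in midbrain and 1.12 in hindbrain, and on this scale the libraries of the 2 origins overlapped in forebrain and midbrain medium. This call did not hold with every library left out. The p was 0.0556 to 0.0926 without aNE_T replicate 1, aNE_M replicate 1, pNE_T replicate 1, pNE_T replicate 2 or pNE_M replicate 2. Fewer arrangements are possible with 1 library left out, so a higher p there does not by itself show dependence on that library. The difference itself was 0.45 to 0.72 with any 1 of the 12 libraries left out. The higher ratio did not come with more CDH2. CDH2 itself was lower in pNE-derived cells in forebrain, midbrain and hindbrain medium (log2 -0.67, -0.72 and -0.78). In the limma fit these differences had adjusted p = 2.03e-04, 1.45e-04 and 6.26e-05, but were under the size required for a call. CDH1 was lower by more (log2 -0.99, -1.03 and -1.90).

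**Figure D2:**
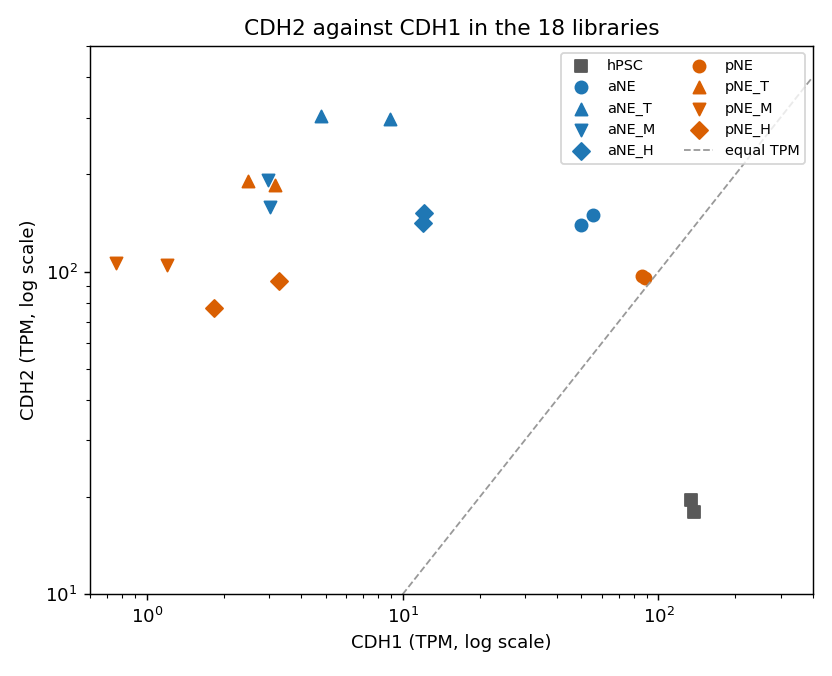
CDH2 against CDH1 in the 18 libraries, both in TPM on log axes. Marker shape gives the medium, colour the origin, and the dashed line equal TPM. Both hPSC libraries are below the line, the pNE libraries at ratios of 1.08 and 1.12 lie almost on it, and the day-4 libraries lie far to its left.

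CDH6 encodes K-cadherin, a type II cadherin of the early neural folds, hindbrain, neural crest and kidney. It was nearly silent in hPSC, at 0.621 TPM in both libraries. At day 2 it was 14.1 and 15.4 TPM in aNE and 53.2 and 56.0 in pNE, and the difference between origins was called (log2 1.82, SE 0.08, adjusted p = 8.94e-09). Day-4 levels of aNE-derived cells were 56.6 and 51.1 TPM in forebrain, 45.1 and 46.5 in midbrain and 189 and 178 in hindbrain medium. Those of pNE-derived cells were 202 and 201, 112 and 111, and 113 and 128 TPM. Hindbrain medium therefore held the highest CDH6 among aNE-derived cells and forebrain medium the highest among pNE-derived cells. In the order of means, pNE_T did not differ from aNE_H, pNE_H from pNE_M, or pNE from aNE_T at an adjusted p under 0.05. The rise from pNE to pNE_M (log2 1.02) was no longer called without pNE replicate 1 (log2 0.99).

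CDH11 encodes OB-cadherin, a type II cadherin of mesenchyme and of parts of the developing brain. It came up later than CDH2 and CDH6. Levels were 5.51 and 5.85 TPM in hPSC, 13.9 and 17.3 in aNE, and 9.57 and 13.6 in pNE. Day 4 brought 174 and 160 TPM in aNE_T, 183 and 181 in aNE_M and 220 and 196 in aNE_H. In pNE-derived cells there were 79.4 and 76.5 TPM in forebrain, 232 and 252 in midbrain and 118 and 114 in hindbrain medium. Among aNE-derived cells the differences between media were 0.12 to 0.31 on the log2 scale and not called. In pNE-derived cells midbrain medium was higher than forebrain (log2 1.62) and hindbrain medium lower than midbrain (log2 -1.05). The latter call was lost without pNE_M replicate 2 (log2 -0.99). In pNE against hPSC the log2 difference was 0.89, and it was called without pNE replicate 1 (log2 1.13).

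Added together, the 5 cadherins kept a total of 286 to 302 TPM in hPSC, aNE and pNE and came to 329 to 570 TPM at day 4, while their make-up changed. In hPSC, CDH1 made up 46.2% ± 1.3 and CDH3 45.2% ± 1.1 of the sum (SD, n = 2). In aNE, CDH2 held 50.6% ± 1.5, and in pNE, CDH2 held 31.8% ± 0.4 and CDH1 28.96% ± 1.2. At day 4 CDH1 and CDH3 together were a small remnant: CDH1 was at 0.211% to 2.11% and CDH3 at 1.28% to 6.10%. The leading cadherin of a day-4 group differed between groups. It was CDH2 in aNE_T (53.5% ± 1.8), CDH11 in aNE_M (43.7% ± 2.8, beside CDH2 at 41.9% ± 3.2), and CDH11 in aNE_H (36.4% ± 0.9) and pNE_M (51.9% ± 1.5). It was CDH6 in pNE_T (42.1% ± 0.2) and in pNE_H (36.6% ± 1.2, beside CDH11 at 35.4% ± 3.1). The order of the first and second cadherin lay within their spread in aNE_M and pNE_H.

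**Figure D3:**
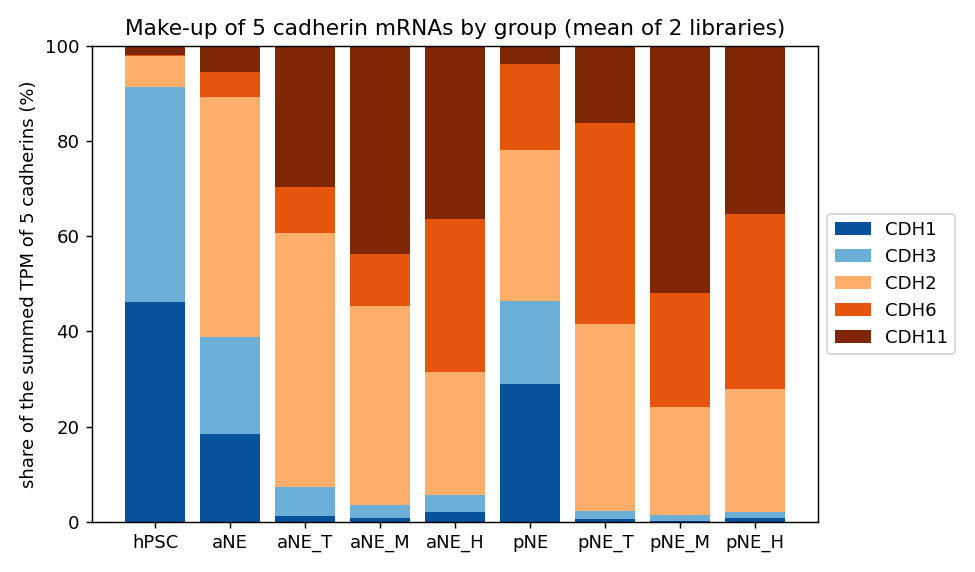
Share (%) of each cadherin in the summed TPM of CDH1, CDH3, CDH2, CDH6 and CDH11, as the mean of 2 libraries per group. CDH1 (46.2%) and CDH3 (45.2%) fill most of the hPSC bar and a thin band of each day-4 bar.

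EPCAM encodes an adhesion glycoprotein of simple epithelia and pluripotent cells. It was 219 and 234 TPM in hPSC, 148 and 138 in aNE and 180 and 163 in pNE. At day 4 all 12 libraries lay between 8.58 and 13.2 TPM. The day-2 differences were small (log2 -0.66, SE 0.09, in aNE and -0.40, SE 0.09, in pNE) and not called, though their adjusted p was 6.70e-05 and 0.00326. The day-4 differences from hPSC ran from -4.03 in aNE_M to -4.57 in pNE_H. Of the whole log2 change by day 4, 8.70% to 16.3% was present at day 2. Day-4 groups next to each other in the order of means did not differ at an adjusted p under 0.05, and no comparison of media or of origin at day 4 was called. Of these 9 comparisons, 2 passed the adjusted p alone: log2 -0.44 in aNE_H against aNE_M and -0.50 in pNE_M against aNE_M.

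CLDN6 encodes a tight-junction claudin of embryonic epithelia and pluripotent cells, and it was the most abundant of the 10 genes in hPSC, at 994 and 1009 TPM. At day 2 it was still at 920 and 892 TPM in aNE and 741 and 841 in pNE. At day 4 the 6 groups separated. The levels were 330 and 309 TPM in aNE_T, 109 and 103 in aNE_M and 142 and 139 in aNE_H. They were 187 and 189 TPM in pNE_T, 35.6 and 37.7 in pNE_M and 55.9 and 69.8 in pNE_H. Every one of the 6 groups differed from its neighbour in the order of means. Forebrain medium kept the most and midbrain medium the least in both origins, and midbrain fell below forebrain by a log2 of -1.58 in aNE-derived and -2.33 in pNE-derived cells.

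ESRP1 and ESRP2 encode paralogous RNA-binding proteins that set the epithelial pattern of splicing. ESRP1 was 89.3 and 88.9 TPM in hPSC, 34.6 and 32.1 in aNE, and 37.5 and 32.7 in pNE, a fall that was called in both (log2 -1.39 and -1.32, SE 0.15). At day 4 it was 7.13 and 5.64 TPM in aNE_T and 2.84 and 3.49 in pNE_T. It was 1.88 and 1.90 in aNE_H and 2.10 and 1.90 in pNE_H. The lowest values were in midbrain medium, at 0.732 and 0.393 TPM in aNE_M and 0.327 and 0.234 in pNE_M. ESRP1 in midbrain medium was below forebrain medium in both origins (log2 -2.24 and -1.70). ESRP2 was less abundant than ESRP1 in hPSC, at 29.7 and 29.4 TPM. It was 18.1 and 16.7 TPM in aNE and 15.0 and 17.4 in pNE, and these differences from hPSC were not called (adjusted p = 0.0921 and 0.0626). All 12 day-4 libraries lay between 0.463 and 3.11 TPM. The replicates of ESRP2 were the least alike, at 2.16 and 0.681 TPM in aNE_T and 0.935 and 3.11 in aNE_H, and no comparison of origin or medium at day 4 was called (adjusted p of 0.154 or more).

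VIM encodes vimentin, the intermediate filament of mesenchyme and also of neuroepithelial cells. It was 51.6 and 50.7 TPM in hPSC, 432 and 390 in aNE and 394 and 487 in pNE. It rose by 2.98 and 3.07 on the log2 scale (SE 0.09 each), and the difference between the day-2 origins was 0.09 (SE 0.09), which was not called. Midbrain medium raised it further, to 2421 and 2359 TPM in aNE_M and 3008 and 3168 in pNE_M. Hindbrain medium gave 1401 and 1239 TPM in aNE_H but 733 and 678 in pNE_H, next to 795 and 741 in aNE_T and 702 and 739 in pNE_T. In aNE_M and pNE_M VIM exceeded forebrain medium by 1.64 and 2.10 on the log2 scale. In the same groups the summed markers of mesendoderm (9 genes) were 97.8 to 117 TPM in aNE_M and 16.2 to 16.6 in pNE_M, against 5.48 to 12.2 in the other day-4 groups. Of these 9 genes, 6 were under 1 TPM in both libraries of aNE_M, and 6 in both of pNE_M, so the sums rest on few genes. Against hPSC, MIXL1 (log2 5.47) and EOMES (log2 4.01) had the largest rises, in aNE_M. The part of mesendoderm cells in the VIM level was not tested.

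Within an origin, fewer of the 10 genes were called between media than between day 2 and day 4, where time, medium and plating density all changed. The shares of all genes were also lower between media, at 4.92% to 10.1%, than from day 2 to day 4, at 9.03% to 12.7%. Among aNE-derived cells, midbrain against forebrain medium called 4 of 10 (10.1% of all genes), hindbrain against forebrain 4 (6.60%) and hindbrain against midbrain 2 (4.92%). Among pNE-derived cells the counts were 4 (8.60%), 2 (5.03%) and 3 (5.99%). ESRP1, CLDN6 and VIM were called for midbrain against forebrain medium in both origins, in the same direction. CDH1 was called once, higher in aNE_H than in aNE_M (log2 1.70, adjusted p = 1.74e-04). At low levels the pseudocount and single libraries moved other calls. With a pseudocount of 0.1 and all libraries, CDH1 was called in aNE_M against aNE_T (log2 -1.10), pNE_M against pNE_T (log2 -1.46) and pNE_H against pNE_M (log2 1.27). ESRP1 was then called in aNE_H against aNE_M (log2 1.63, and 0.90 with a pseudocount of 1). CDH1 in aNE_H against aNE_T was called without aNE_T replicate 1 (log2 1.17), and in aNE_M against aNE_T without aNE_T replicate 2 (log2 -1.31). CDH1 in pNE_M against pNE_T was called without pNE_M replicate 1 (log2 -1.12) or pNE_T replicate 1 (log2 -1.08), and in pNE_H against pNE_M without pNE_H replicate 1 (log2 1.12). Between aNE_H and aNE_M, ESRP1 was called without aNE_M replicate 1 (log2 1.05) and ESRP2 without aNE_H replicate 1 (log2 1.27).

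Between the origins at day 2, 1 of 10 genes was called (3.85% of all genes): CDH6, higher in pNE as given above. CDH2 had a log2 difference of -0.59 (adjusted p = 0.00116), under the required size. At day 4, 3 of 10 were called in forebrain (7.77% of all genes), 3 in midbrain (5.74%) and 3 in hindbrain medium (6.83%). With 10 genes, each count stands on few genes. In forebrain medium pNE-derived cells held less CDH3 (log2 -2.07, SE 0.14) and CDH11 (log2 -1.09, SE 0.13) and more CDH6 (log2 1.89, SE 0.08). In midbrain medium they held less CDH1 (log2 -1.03, SE 0.23) and CLDN6 (log2 -1.51, SE 0.09) and more CDH6 (log2 1.27, SE 0.08). In hindbrain medium they held less CDH1 (log2 -1.90, SE 0.23), CDH3 (log2 -2.01, SE 0.14) and CLDN6 (log2 -1.15, SE 0.09). The midbrain CDH1 call was the weakest, with adjusted p = 0.00714. It was lost without pNE_M replicate 2 (log2 -0.87), under median-ratio scaling (log2 -0.99) and when the compared groups alone were fitted (adjusted p = 0.0682). The hindbrain CDH1 call was also lost when the compared groups alone were fitted (adjusted p = 0.0587). The hindbrain CLDN6 call was lost without pNE_H replicate 1 (log2 -0.998). CDH1 in forebrain medium had a log2 difference of -0.99. It was called with a pseudocount of 0.1 (log2 -1.19), and without aNE_T replicate 2 (log2 -1.38) or without pNE_T replicate 2 (log2 -1.12). ESRP2 in hindbrain medium had a log2 difference of -0.57 and was called without aNE_H replicate 1 (log2 -1.12).

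**Figure D4:**
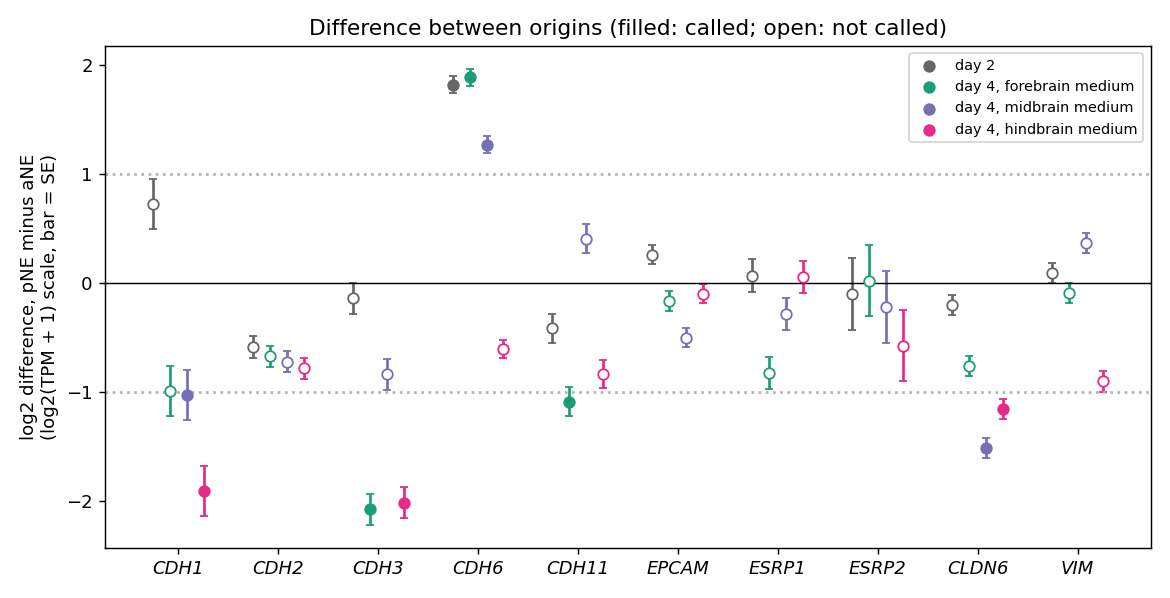
Difference between origins (pNE or pNE-derived minus aNE or aNE-derived) on the log2(TPM + 1) scale for each gene at day 2 and in the 3 day-4 media. Bars are SE, filled points are called, and dotted lines mark the required size of 1. CDH1 is above 0 at day 2 (0.72) and below 0 in all 3 media, and CDH2 lies between -0.59 and -0.78 throughout.

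Whether the change from day 2 to day 4 itself differed between origins was tested as an interaction, the change in pNE-derived minus the change in aNE-derived cells. It was called for 2 of 10 genes in forebrain (7.14% of all genes), 2 in midbrain (7.02%) and 3 in hindbrain medium (7.83%), and all 7 values were negative. CDH1 fell more from pNE than from aNE in every medium, with interactions of -1.71, -1.75 and -2.63 (SE 0.32). CDH3 did so in forebrain (-1.94) and hindbrain medium (-1.87, SE 0.20), and CLDN6 in midbrain medium (-1.31, SE 0.13). CDH6 rose by 3.55 from aNE to aNE_H and by 1.13 from pNE to pNE_H, an interaction of -2.42 (SE 0.11). These interactions share their day-2 libraries across media. VIM in hindbrain medium had an interaction of -0.99 (SE 0.13) and was called when any of 4 libraries was left out (aNE replicate 1, aNE_H replicate 2, pNE replicate 1 or pNE_H replicate 1, log2 -1.05 to -1.15). CLDN6 in hindbrain medium (-0.96) was called without pNE replicate 1 (-1.05) or pNE_H replicate 2 (-1.11). ESRP1 in forebrain medium (-0.89) was called without aNE_T replicate 2 (-1.04) or pNE_T replicate 2 (-1.004). CDH11 in midbrain medium (0.82) was called without pNE replicate 2 (1.05).

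Markers of other cell types changed between the same groups. The summed TPM of 7 neural crest genes was 171 to 190 in aNE_H, 172 to 190 in aNE_M, 117 to 126 in pNE_M, 73.2 to 77.5 in aNE_T, 70.4 to 72.9 in pNE_H and 28.4 to 31.4 in pNE_T. In hPSC this sum was 59.1 to 64.9 TPM. SOX10, the defining factor of migrating crest, averaged 14.5 TPM in pNE_H, 5.39 in pNE_M and 4.43 in aNE_H and 0.602 to 1.18 in the other day-4 groups. TFAP2A stayed at or under 3.47 TPM. Of 8 surface ectoderm genes, TP63, KRT5 and KRT14 were under 1 TPM in every group mean. The sum was 20.9 to 84.9 TPM over the day-4 libraries and 454 to 533 in hPSC. In hPSC, 7 of the 8 genes were under 1 TPM in both libraries, so that sum rests on 1 gene, GABRP. Of the 4 genes tested, 2 or 3 were called higher than hPSC and 1 lower in each day-4 group. Of all genes, 7.26% to 11.5% were higher and 9.52% to 11.4% lower. DLX5 was higher in aNE_T (log2 5.87) and GATA3 in pNE_H (log2 3.83), and GABRP was lower in aNE_M (log2 -5.52). The 7 pan-neural genes summed to 870 to 894 TPM in aNE_T, 402 to 413 in pNE_T and 186 to 335 in the other day-4 groups. In hPSC they summed to 253 to 261 TPM, above pNE_H at 186 to 207 and within the range of aNE_H at 228 to 278. The part of these cell types in the levels of the 10 genes was not tested.

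The EMT factors include the known repressors of CDH1. Of the 7 on this list, 3 were called higher in aNE and 3 in pNE against hPSC. Of all genes, 7.36% were called higher in aNE and 7.14% in pNE. The median log2 change of the list was 0.93 in aNE and 0.81 in pNE, and that of all genes 0.06 and 0.05. At day 4, 3 to 5 of 7 were higher than hPSC, and 1 was lower, in aNE_M. Over the 6 day-4 comparisons with hPSC, 7.26% to 11.5% of all genes were called higher and 9.52% to 11.4% lower, with medians of 0.00 to 0.08. The list's median was 0.87 to 2.80. ZEB2, a repressor of CDH1 that is active in neural ectoderm, led them: 0.288 and 0.646 TPM in hPSC, 26.0 and 23.7 in aNE and 22.4 and 28.7 in pNE (log2 4.15 and 4.18). It peaked in pNE_M at 56.5 and 58.3 TPM. SNAI2, a crest factor, averaged 0.733 TPM in hPSC, 2.46 in aNE and 29.8 in aNE_H (log2 4.17). TWIST1 averaged 16.4 TPM in aNE_H and 6.87 in pNE_H (log2 -1.15), but 2.41 in aNE_M and 8.83 in pNE_M (log2 1.54).

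Factors that maintain epithelia did not move as 1 block. Of 7, the comparison with hPSC called 2 higher and 1 lower in aNE and 3 higher and 1 lower in pNE. Of all genes, 6.19% were called lower in aNE and 5.74% in pNE. The 6 day-4 comparisons called 0 to 2 of 7 higher and 3 to 5 lower, with medians from -1.53 to -0.09, beside 7.26% to 11.5% of all genes higher and 9.52% to 11.4% lower. GRHL2, an activator of epithelial genes, and OVOL2, a repressor of mesenchymal genes, averaged 15.9 and 9.27 TPM in hPSC and 0.154 and 0.128 in aNE_M (log2 -3.87 and -3.19). GRHL3, a relative of GRHL2 needed for neural tube closure, was 1.21 and 0.816 TPM in hPSC and 41.7 and 37.7 in aNE_T (log2 4.34). ELF3, an epithelial ETS factor, was 4.53 and 4.35 TPM in hPSC and 50.5 and 49.8 in pNE_T (log2 3.23). In forebrain medium the 2 thus went opposite ways between origins: GRHL3 was lower (log2 -3.52) and ELF3 higher (log2 3.98) in pNE_T than in aNE_T.

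**Figure D5:**
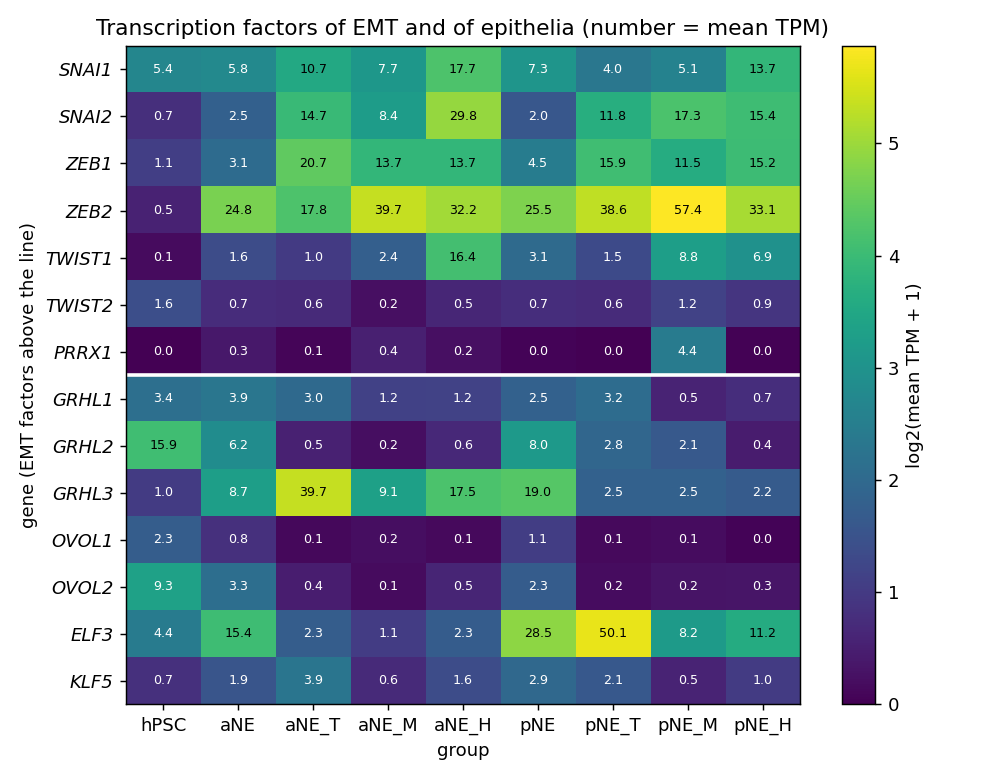
Mean TPM (number in each cell; colour is log2 of the mean plus 1) of 7 EMT factors, above the white line, and 7 epithelial factors, below it, in the 9 groups. ZEB2 is at 0.5 TPM in hPSC and 17.8 or more everywhere else, GRHL3 peaks in aNE_T (39.7) and ELF3 in pNE_T (50.1).

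Other junction genes gave a mixed picture by family. The counts against hPSC at day 4 stand beside 7.26% to 11.5% of all genes called higher, 9.52% to 11.4% called lower, and medians of 0.00 to 0.08. Of the 10 catenins and nectins, which form the inner side of adherens junctions or stand beside cadherins, NECTIN1 was called against hPSC in aNE (log2 1.04), and NECTIN2 in aNE_T and in pNE_T (log2 1.45 in the latter). CTNNB1, the catenin that binds the cadherin tail, averaged 387 TPM in hPSC and 603 in pNE_T, its highest group, a log2 difference of 0.64 that was not called. Of 16 tight-junction genes tested, without CLDN6, 7 to 12 were lower in each day-4 group than in hPSC and 0 or 1 higher, with medians from -1.83 to -0.87. CLDN7, a partner of EPCAM, was 138 and 126 TPM in hPSC, 37.0 and 41.9 in aNE, 78.8 and 65.2 in pNE and 1.75 and 1.51 in aNE_T (log2 -5.66). CLDN11 went the other way, from an average of 4.99 TPM in hPSC to 94.9 in pNE_M but 1.33 in aNE_M (log2 5.37 between origins). Of 10 other type II cadherins tested, 4 to 8 were higher than hPSC in each day-4 group, with medians from 0.64 to 1.76. CDH8 reached 34.5 TPM in aNE, from 6.75 in hPSC (log2 2.21), and CDH5, the cadherin of blood vessels, 23.1 TPM in pNE_T, from 0.577 (log2 3.93).

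Among 14 epithelial surface, keratin and traffic genes, 8 to 11 were lower and 0 to 2 higher than hPSC at day 4, with medians from -2.80 to -1.52. Of all genes, 9.52% to 11.4% were lower and 7.26% to 11.5% higher. AP1M2, an adaptor for sorting to the basolateral membrane, averaged 136 TPM in hPSC and 0.914 in aNE_M (log2 -6.17). SPINT1, a protease inhibitor, averaged 113 TPM in hPSC and 3.89 in pNE_M (log2 -4.55). In pNE_M the simple-epithelial keratins KRT8 and KRT18 went against the list. They averaged 315 and 419 TPM in hPSC and 994 and 1087 in pNE_M (log2 1.65 and 1.37). The other day-4 groups each had 0 or 1 gene of the list called higher. Among 9 other splicing regulators, RBM47, which also acts in epithelial splicing, averaged 69.9 TPM in hPSC and 8.01 in aNE (log2 -2.98). RBM47 was the single gene of that list called lower in either day-2 comparison. The list as a whole did not fall with ESRP1 and ESRP2. At day 4, 1 to 4 of 9 were higher than hPSC and 1 lower in each group, with medians from 0.10 to 0.90. The most were higher in aNE_T, MBNL2 and NOVA1 among them. Of 9 mesenchymal matrix and filament genes, 4 to 7 were higher than hPSC in each day-4 group and 0 or 1 lower, with medians from 0.98 to 2.24. TAGLN, an actin-binding protein of smooth muscle, averaged 28.4 TPM in hPSC and 3254 in aNE_T (log2 6.79). Of 10 apicobasal polarity genes tested, 1 or 2 were higher and 2 to 4 lower than hPSC in each day-4 group, with medians from -0.49 to 0.36. CRB2 averaged 3.36 TPM in hPSC and 39.2 in aNE (log2 3.21), and CRB3, its epithelial relative, 14.2 TPM in pNE_T and 1.23 in aNE_T (log2 2.80). Against hPSC, CRB3 fell in aNE_M (log2 -4.29) and LLGL2 in pNE_M (log2 -2.51).

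The genes most like members of the set were found by Pearson's r of mean log2(TPM + 1) over the 9 groups, among 5680 genes. This is a description over 9 points that share libraries. EPCAM was closest to MTARC1 (0.992), SPINT1 (0.992) and CLDN7 (0.986), and ESRP2 to MARVELD3 (0.995), a tight-junction protein. ESRP1 was closest to FAM124A (0.994), CLDN10 (0.993) and LAD1 (0.988). CDH1 was closest to HACL1 (0.988) and CDH2 to CBX8 (0.995). CDH3 was closest to DIRAS1 (0.979), CDH6 to SMYD2 (0.984) and VIM to TYMS (0.976). Between the members themselves, CDH1 and CDH2 had an r of -0.54 over the 9 group means.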

How the data were processed

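The authors deposited a single table of TPM values, per gene and library, which sum to 1000000 in each library. The submitters' processing notes name bcl2fastq, FastQC, Trim Galore, kallisto, deepTools and the build hg38, without versions or roles. RNA was poly-T selected, per the labels' protocols. The deposited TPM were taken as log2(TPM + 1), which understates changes of low genes, for 17033 genes that reached 1 TPM in 2 or more libraries. In limma (3.58.1, R 4.3.3), the 9 group means were estimated together from the 18 libraries, with trended, moderated variances and 9 residual degrees of freedom. P-values were adjusted over all tested genes by the Benjamini-Hochberg method and reflect the spread between 2 biological replicates. The code was tested on simulated data.

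The 10 genes and all lists were chosen with earlier results of these data known. Named genes are the 10, the 2 largest rises and falls of each list per family of comparisons (called, at least 5 TPM) and the closest genes by r, of which some are not reported here. Others (CTNNB1, TFAP2A, TP63, KRT5, KRT14, NFATC3, TNFRSF12A, VIM-AS1) were named after their values were seen. Alternatives were a pseudocount of 0.1, no filter, a filter at 5 TPM, median-ratio and quantile scaling, the compared groups alone, adjusted p alone, a replicate block, and each library left out.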

Additional observations from a re-analysis of the deposited data

Results flagged for a closer look

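The change from day 2 to day 4 differed between origins, by the interaction test in the limma fit, for 7 combinations of gene and medium (pNE-derived minus aNE-derived, log2 scale). For CDH1 the value was -1.71 in forebrain medium (adjusted p = 0.00299), -1.75 in midbrain medium (adjusted p = 0.00261) and -2.63 in hindbrain medium (adjusted p = 9.83e-05). For CDH3 it was -1.94 in forebrain medium (adjusted p = 2.39e-05) and -1.87 in hindbrain medium (adjusted p = 3.07e-05). For CDH6 it was -2.42 in hindbrain medium (adjusted p = 1.86e-08), and for CLDN6 -1.31 in midbrain medium (adjusted p = 1.20e-05). Day-2 CDH1 averaged 87.5 TPM in pNE and 52.7 TPM in aNE (log2 0.72, adjusted p = 0.0558, not called), and the interaction contains that difference. Groups of 2 libraries were too small for a test of single outlying samples.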

How the results depend on the processing

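Of 3090 alternative values for single genes, 3055 kept their call, 26 gained one and 9 lost it. The sign changed in 26 values, none of them called and none with a main log2 difference above 0.48 in size. Scaling moved the median of all genes by at most 0.08. Dropping the minimum fold change raised the calls on origin at day 2 from 1 to 2, on origin at day 4 from 9 to 21, on medium from 19 to 40 and on interactions from 7 to 17. Left-out libraries gave 12 to 13 calls at day 2 against hPSC, 60 at day 4 against hPSC, 50 to 51 from day 2 to day 4, 8 to 10 for origin at day 4, 18 to 20 for medium and 7 to 9 for interactions. The ratio of CDH2 to CDH1 gave a difference of 0.45 to 0.72 in the same way, and p exceeded 0.05 in 5 of 12 cases, where fewer arrangements are possible. Replicate numbers did not pair the samples: over 36 pairs of groups, deviations correlated at -0.09 to 0.08. A fit with the replicate block gave the same counts of 12, 60, 1, 9, 51, 19 and 7 calls. With 2 libraries a group and unknown depth, levels near or under 1 TPM (CDH6 in hPSC, ESRP1, ESRP2 and pNE-derived CDH1 in midbrain medium, ESRP2 in the other day-4 groups) are the least certain.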
